A study of Mus musculus with 15 samples.

Results

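The genes described here are the nuclear genes of the mitochondrial respiratory chain and ATP synthase, as measured in mouse liver after gastric bypass. They were chosen by name: every gene whose symbol in the array's probe table starts with Nduf, Sdha to Sdhd, Uqcr, Cox4 to Cox8 or Atp5, on a transcript cluster (the array's unit for 1 transcribed locus) with a single symbol. Cox7a1 and Cox8b were left out because they mark fat on 1 array. The rule gave 85 members of the 22180 genes tested: 32 of complex I, 4 of complex II, 7 of complex III, 16 of complex IV, 17 of complex V, and 9 Nduf-named genes that are not subunits (8 assembly factors and Ndufa4l2). Another 8 genes with such names, among them Ndufb2, Uqcr10 and Cox6c, occur only on clusters that carry several symbols and were not analysed here.

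All 15 mice were male ApoE3L.CETP animals, which carry the human APOE*3-Leiden and CETP transgenes and so have a more human-like lipoprotein profile. They were 9 to 12 weeks old at the start, were acclimated for 2 weeks, and were then fed 60% fat with 0.25% cholesterol during the 6 weeks before surgery (a Western type diet in the words of the series' design text). The RYGB group, 6 mice, underwent Roux-en-Y gastric bypass, which joins a small gastric pouch to the jejunum. The 4 BWm mice had sham surgery and were held at a weight matched to RYGB, and 5 had sham surgery and ate ad libitum (Sham AL). Livers were taken 20 days after surgery, after glucose and insulin tolerance tests, and total liver RNA was hybridised for each mouse on its own GeneChip array (Mouse Gene 2.0 ST). Transgenes, the diet before surgery, housing and surgery under anaesthesia were thus shared by all groups, and no group without surgery was analysed here. Feeding after surgery was not shared, since BWm mice were held at a weight and Sham AL mice ate ad libitum. The labels call the mice biological replicates without giving litter or day. The sample descriptions also carry an animal number whose meaning is not given. It was below 50 for RYGB replicates 1 to 3 and Sham AL replicate 1, and above 60 for all other mice. An alternative fit took these 2 ranges as a block (the animal number block).

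Complexes I and II pass electrons from NADH and succinate to coenzyme Q, complex III passes them on to cytochrome c, and complex IV hands them to oxygen. Complexes I, III and IV pump protons as they do so, and complex V, the ATP synthase, makes ATP from the returning protons. A minority of subunits of complexes I, III, IV and V are encoded in mitochondrial DNA, and the rest, with all of complex II, are nuclear genes whose transcription is known to respond to the factors NRF1 and GABP and to ERR-alpha with the coactivator PGC-1-alpha. In liver this machinery oxidises the NADH and FADH2 that fatty acid oxidation and the tricarboxylic acid cycle produce.

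Because NRF1 is the factor best known from promoters of these genes, its binding letters are shown in 1 or more promoters of each complex. The letters searched were GCGC, then any 1 base, then TGCGC, on both strands of the 300 bases around each gene's start (250 before and 50 after), from RefSeq's GRCm38.p6 annotation. The 40-base windows below, 5′ to 3′ on the strand of the gene, have the match in capitals. They lie at chr6:24527692-24527731 (Ndufa5, complex I, minus strand), chr13:74350226-74350265 (Sdha, complex II, minus strand), chr9:108936638-108936677 (Uqcrc1, complex III, plus strand), chr5:115349096-115349135 (Cox6a1, complex IV, minus strand), chr15:102671065-102671104 (Atp5g2, complex V, minus strand) and chr5:108434425-108434464 (Atp5k, complex V, minus strand).
Ndufa5: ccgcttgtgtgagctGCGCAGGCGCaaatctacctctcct
Sdha: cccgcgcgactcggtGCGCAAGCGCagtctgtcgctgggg
Uqcrc1: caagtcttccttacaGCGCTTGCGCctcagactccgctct
Cox6a1: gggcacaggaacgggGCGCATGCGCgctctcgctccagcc
Atp5g2: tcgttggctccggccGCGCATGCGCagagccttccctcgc
Atp5k: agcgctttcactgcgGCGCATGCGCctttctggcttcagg

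A promoter entry was found for 70 of the 85 members; the others are Cox8c, Uqcrc2, Ndufa4l2, Cox4i2, Ndufaf6, Cox6a2, Ndufa2, Uqcrb, Ndufs1, Sdhc, Cox4i1, Ndufb9, Atp5a1, Uqcrq and Atp5mpl. The entries of 17 members (24.3%) held the NRF1 letters, against 5.19% of the 27025 genes with an entry and 12.0% of the 7541 of those genes whose mean signal reached log2 5. The GABP letters CCGGAAG, searched in the same way, occurred in 19 members (27.1%), against 9.93% of all genes and 20.4% of the genes at log2 5 or above. The ERR letters TNAAGGTCA occurred in 2 members, Sdhd and Atp5g3 (2.86%), against 1.43% and 0.955%. Sdha held the NRF1 letters at 3 places, and 4 members (Sdhd, Cox6a1, Atp5h and Atp5k) held both the NRF1 and the GABP letters. In the members' entries, matches of different motifs overlapped at 0 places. A match describes the sequence and is not a site of binding in these livers.

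Of the 4 members called by the tests below, Ndufb3, Ndufa5, Sdhc and Ndufa4l2, promoter entries were found for Ndufb3 and Ndufa5. They are shown because both complex I genes were called lower after bypass, each in 1 comparison, as was Sdhc. The Ndufb3 entry, chr1:58586147-58586446 on the plus strand, has none of the 3 motifs in its letters. The first of the 2 Ndufa5 entries, chr6:24527477-24527776 on the minus strand, has the NRF1 letters (in capitals) of the window above.
Ndufb3: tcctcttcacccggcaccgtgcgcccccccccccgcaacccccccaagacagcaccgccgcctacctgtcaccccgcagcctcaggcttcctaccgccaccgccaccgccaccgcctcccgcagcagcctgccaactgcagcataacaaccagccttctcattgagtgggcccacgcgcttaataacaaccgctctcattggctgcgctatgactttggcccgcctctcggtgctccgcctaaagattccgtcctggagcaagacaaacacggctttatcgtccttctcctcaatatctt
Ndufa5: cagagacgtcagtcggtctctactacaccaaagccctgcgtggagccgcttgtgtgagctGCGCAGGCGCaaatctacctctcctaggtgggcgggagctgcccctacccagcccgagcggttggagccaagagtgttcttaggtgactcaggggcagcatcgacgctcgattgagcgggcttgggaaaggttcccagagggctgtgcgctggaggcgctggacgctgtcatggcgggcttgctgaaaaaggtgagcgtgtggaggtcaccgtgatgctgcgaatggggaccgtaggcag

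The values are log2 signals that the authors obtained with the robust multi-array average. They show differences between samples for 1 gene, not which of 2 genes has more RNA, since each probe set has its own brightness. Differences are log2 fold changes with their SE from limma, fitted to all 22180 genes on all 15 arrays, and p-values were adjusted over all 22180 genes by the Benjamini-Hochberg method, with a call at an adjusted p under 0.05. In bulk liver RNA, fewer cells of a type and less RNA per cell cannot be told apart. Hepatocyte markers averaged log2 11.4 to 11.8 on every array, so the label liver was borne out, but 1 array stood apart. On Sham AL replicate 4 the summed log2 level of the 8 brown fat markers was 65.1, against 35.7 to 37.9 on the other Sham AL arrays and 33.7 to 35.8 in RYGB and 34.0 to 35.95 in BWm, and the 7 adrenal cortex markers summed to 62.5, against 20.3 to 22.6 elsewhere. Brown fat is rich in mitochondria, so the comparisons below are given with and without that array; the part of these markers in the results was not tested.

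The members moved little. Relative to each gene's mean over the 15 arrays, the mean of the 85 members was -0.06, -0.01, 0.00, -0.08, -0.06 and -0.09 on RYGB replicates 1 to 6, against 0.17, 0.10, -0.10 and 0.08 on BWm replicates 1 to 4 and 0.00, -0.03, -0.12, 0.14 and 0.06 on Sham AL replicates 1 to 5 (log2). The RYGB arrays lay close together, and the 2 sham groups spread more widely and overlapped with them. The group means were -0.05 ± 0.04 in RYGB, 0.06 ± 0.12 in BWm and 0.01 ± 0.10 in Sham AL (SD, n = 6, 4 and 5), and -0.02 ± 0.07 in Sham AL without replicate 4 (n = 4).

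**Figure D1:**
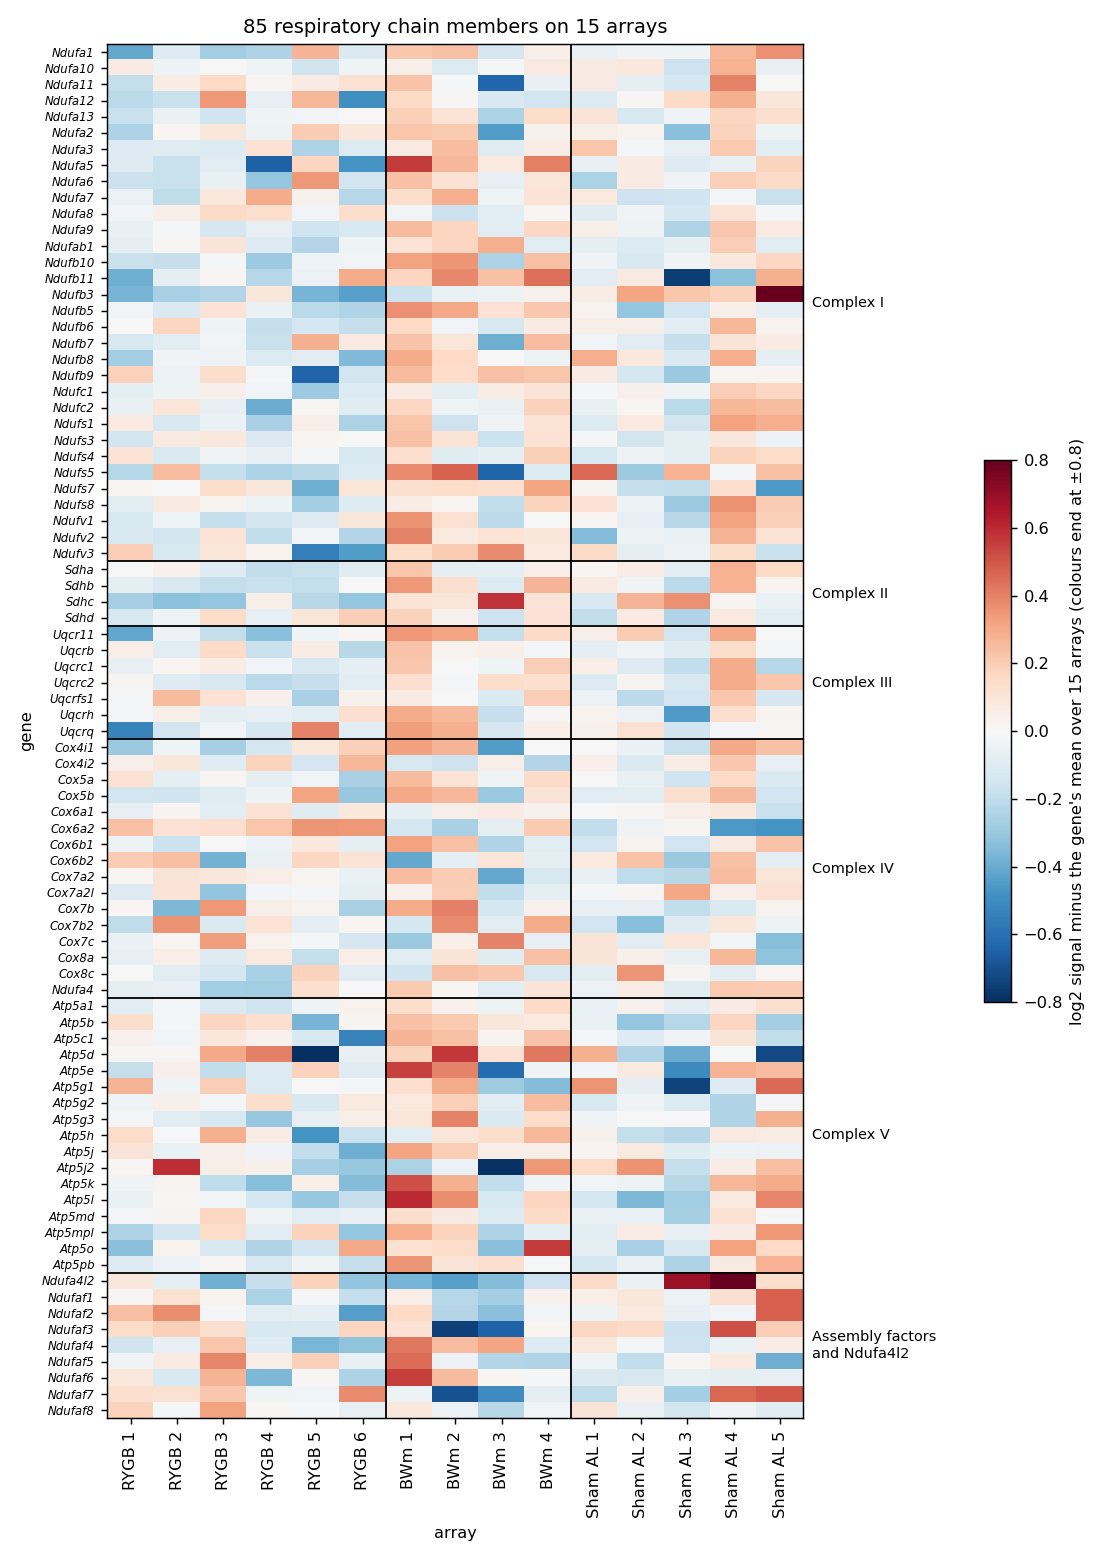
Log2 signal of each of the 85 members (rows, by complex) on each of the 15 arrays (columns, by group), as the difference from the gene's mean over all arrays. Red columns at Sham AL 4 and BWm 1 and blue columns at BWm 3 and Sham AL 3 run through most complexes, and the 6 RYGB columns differ less from one another.

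On single arrays the members stood high or low together. These arrays were singled out after their values were seen. Sham AL replicate 4 was the highest of the 5 Sham AL arrays for 49 of the 85 members (57.6%), against 22.5% of all genes, and stood a median of 0.20 (log2) above the mean of the other 4. It was the highest for 21 of 32 members of complex I, 3 of 4 of complex II, 6 of 7 of complex III, 10 of 16 of complex IV and 6 of 17 of complex V. Sham AL replicate 3 was the lowest of its group for 46 members (54.1%), against 22.4% of all genes. Among the BWm arrays, replicate 3 was the lowest of 4 for 50 members (58.8%), against 26.1% of all genes, at a median of -0.22 from the mean of the others, and replicate 1 was the highest for 45 (52.9%), against 24.04%. The brown fat markers summed to 34.8 on BWm replicate 3 and 36.5 on Sham AL replicate 3, within the range of the arrays other than Sham AL replicate 4. The hepatocyte markers summed to 94.2 on BWm replicate 3, the highest of the 15 arrays.

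**Figure D2:**
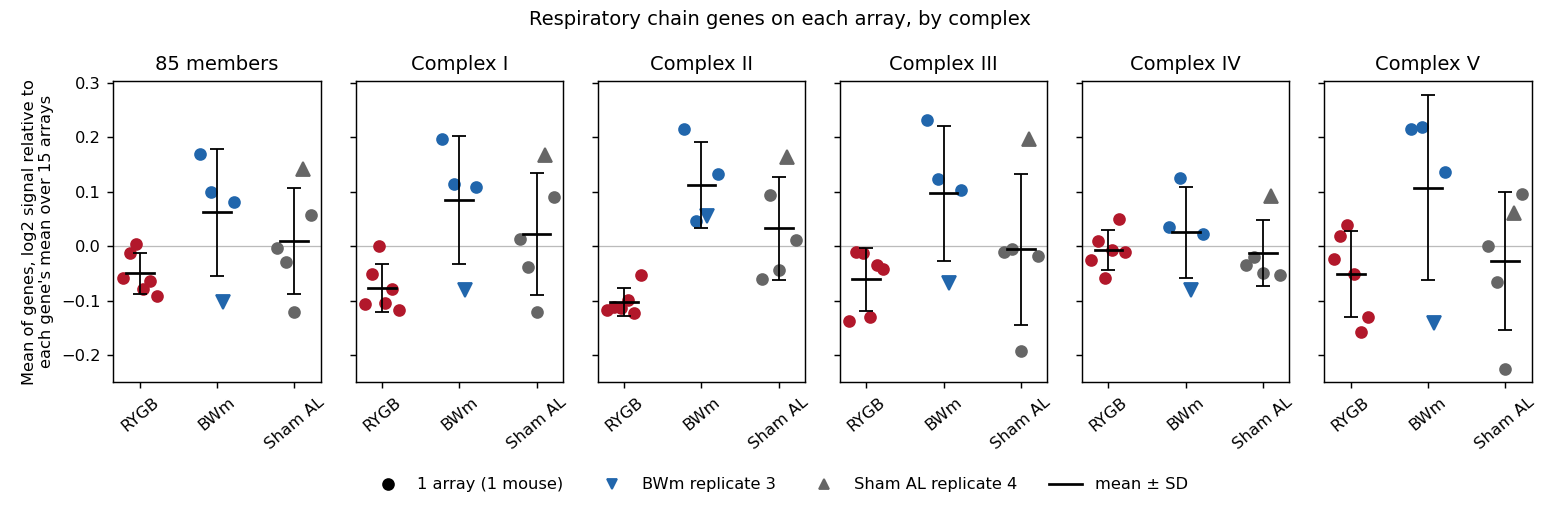
Mean of all 85 members and of the members of each complex on each array (points, 1 mouse each), as log2 difference from each gene's mean over 15 arrays, with group mean ± SD. In every panel the RYGB points lie within a narrower range than those of at least 1 sham group; BWm replicate 3 (downward triangle) is the lowest BWm array except for complex II.

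RYGB against BWm asks how the bypass liver differs from the liver of sham mice of the same weight. It gave the clearest tilt of the 3 comparisons, towards lower signal after bypass. Of the 85 members, 68 had a negative log2 fold change and the median was -0.13, while the median over all genes was 0.00 and that over the 9482 genes at log2 5 or above was 0.03. Among the 70 integral subunits of the liver complexes, 63 were on the negative side, with a median of -0.15. limma called 2 members, Ndufa5 and Sdhc, both lower, of 85. Over all genes 6.36% were called with all arrays and 6.96% without Sham AL replicate 4, which left the same 2 members called, so calls were no more frequent among the members than among other genes. At an unadjusted p under 0.05, 16 members were lower and 3 higher (18.8% and 3.53%), against 7.73% and 10.6% of all genes. Of the 73 members at log2 5 or above, 15 were lower and 2 higher at that level, against 12.4% and 18.7% of all genes that bright. The tilt kept its direction when any 1 array was left out: the median lay between -0.19 without BWm replicate 3 and -0.10 without BWm replicate 1. Because members rose and fell together on single arrays, counts of members in each comparison are not independent observations. The array means of the members overlapped, at -0.09 to 0.00 in RYGB and -0.10 to 0.17 in BWm.

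Ndufa5, an accessory subunit in the matrix arm of complex I, had a lowest, median and highest signal of 5.86, 6.37 and 6.68 on the 6 RYGB arrays, against 7.07, 6.77, 6.58 and 6.91 on the BWm arrays (log2). Of the RYGB arrays, 5 lay below every BWm array, and replicate 5, the highest, overlapped with them. Ndufa5 fell 1.459-fold in RYGB livers against BWm livers, by a log2 fold change of -0.55 ± 0.14 (SE, 95% interval -0.84 to -0.25, limma adjusted p = 0.026, or 0.0262 without Sham AL replicate 4). Its Sham AL values, 6.44, 6.57, 6.40, 6.45 and 6.69, overlapped with both other groups, and neither other comparison passed (adjusted p = 0.52 for RYGB against Sham AL and 0.301 for BWm against Sham AL). Without BWm replicate 1 the Ndufa5 adjusted p became 0.0958, the highest over its alternatives, which ranged down to 0.00987 without RYGB replicate 5. It was also above 0.05 without RYGB replicate 4 or 6 and without BWm replicate 2 or 4.

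Sdhc, 1 of the 2 membrane anchors of succinate dehydrogenase, had a lowest, median and highest signal of 8.63, 8.67 and 9.00 in RYGB, against 9.07, 9.05, 9.54 and 9.06 in BWm (log2). The groups did not overlap, but RYGB replicate 4 (9.00) and BWm replicate 3 (9.54) each stood far from the rest of their own group. Sdhc fell 1.37-fold (log2 fold change -0.45 ± 0.13, SE, 95% interval -0.72 to -0.19, limma adjusted p = 0.0395, or 0.0404 without Sham AL replicate 4). Without BWm replicate 3 the Sdhc difference was -0.33, with an adjusted p of 0.168. Of the 15 fits that left out 1 array, 6 kept the call, and over all alternatives the adjusted p ranged from 0.0166 to 0.168. Its Sham AL values were 8.84, 9.23, 9.32, 8.98 and 8.91, and RYGB against Sham AL gave -0.33 ± 0.12 (adjusted p = 0.22).

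Among the other complex II genes the iron-sulfur subunit Sdhb gave -0.28 ± 0.11 (SE, adjusted p = 0.158), the flavoprotein subunit Sdha -0.12 ± 0.10 (adjusted p = 0.617), and the second anchor Sdhd -0.01 ± 0.11. The mean of the 4 complex II genes, relative to each gene's own mean, lay between -0.12 and -0.05 on the RYGB arrays and between 0.05 and 0.22 on the BWm arrays. These ranges do not overlap, whereas those of complexes I, III, IV and V did. Of the 4 genes Sdhc had the largest difference, and Sdha, Sdhb and Sdhd each overlapped between the groups. BWm replicate 3 was the lowest BWm array for 3 of the 4 genes and the highest only for Sdhc, at the outlying 9.54. The separation of the complex II means thus leans on Sdhc, and a mean without Sdhc was not tested.

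In complex I, 29 of 32 members were on the negative side, with a median of -0.15 (-0.20 without BWm replicate 3). Ndufb5, an accessory subunit of the membrane arm, had 6.92, 7.08 and 7.27 as lowest, median and highest values in RYGB, against 7.53, 7.46, 7.28 and 7.38 in BWm. The groups just separated, and the difference of -0.34 ± 0.10 (SE) did not pass (adjusted p = 0.0553). Ndufb11, at a low mean signal of 4.10, gave -0.38 ± 0.17 (adjusted p = 0.227). Ndufb10, also of the membrane arm, gave -0.28 ± 0.12 (adjusted p = 0.196). The core subunits Ndufs1, which carries iron-sulfur clusters, and Ndufv1, which binds NADH, gave -0.13 ± 0.12 and -0.15 ± 0.12.

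All 7 members of complex III were on the negative side, with a median of -0.13, although none was called by limma and 1 had an unadjusted p under 0.05. That was Uqcr11, a small accessory subunit, at -0.33 ± 0.13 (SE, adjusted p = 0.166). The core subunit Uqcrc1 gave -0.13 ± 0.11, its partner Uqcrc2 -0.21 ± 0.10, and the Rieske iron-sulfur protein Uqcrfs1 -0.01 ± 0.11. In complex IV the median was -0.08 with 11 of 16 on the negative side and none called. At an unadjusted p under 0.05, 1 member was above (Cox6a2, 0.30 ± 0.12) and none below. The 16 include isoforms of other tissues, Cox4i2, Cox6a2, Cox6b2, Cox7b2 and Cox8c, with mean signals of 1.42 to 4.27. Relative to each gene's mean, complex IV averaged -0.01 ± 0.04 in RYGB and 0.03 ± 0.08 in BWm (SD). Its liver subunits alone averaged -0.03 ± 0.04 and 0.06 ± 0.14. Cox4i1, the general isoform of subunit 4, and Cox5a, another nuclear subunit, gave -0.12 ± 0.15 and -0.17 ± 0.10.

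Complex V had a median of -0.14 with 15 of 17 members on the negative side, none called by limma and 3 below at an unadjusted p under 0.05. These were Atp5l (subunit g) at -0.37 ± 0.15, Atp5c1 (the gamma subunit of the rotor) at -0.27 ± 0.12 and Atp5j (coupling factor 6) at -0.24 ± 0.11 (SE, adjusted p = 0.18, 0.216 and 0.223). The catalytic subunit Atp5b gave -0.14 ± 0.12 and its partner Atp5a1 -0.13 ± 0.09. The 3 genes for the same c subunit of the ring, Atp5g1, Atp5g2 and Atp5g3, gave 0.10 ± 0.19, -0.09 ± 0.09 and -0.22 ± 0.12, none of them called.

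The complex I assembly factors leaned to the other side by sign, but their array means overlapped. These means were 5.81 to 6.12 on the RYGB arrays and 5.69 to 6.15 on the BWm arrays (log2). Of the 8, 6 had a positive log2 fold change in RYGB against BWm, with a median of 0.11 (0.04 without BWm replicate 3). Ndufaf7, a methyltransferase that modifies a complex I core subunit, had a lowest, median and highest signal of 6.33, 6.48 and 6.74 in RYGB, against 6.32, 5.67, 5.86 and 6.29 in BWm. No RYGB array lay below a BWm array, at 0.46 ± 0.17 (SE), but this did not pass (adjusted p = 0.125). Ndufaf3 gave 0.38 ± 0.17 and Ndufaf4, an exception, -0.35 ± 0.12 (adjusted p = 0.219 and 0.111). These 3 were named after their values were seen, and the difference between assembly factors and subunits was not tested.

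The sums of hepatocyte markers also differed in this comparison, though each of the 8 markers singly overlapped between the groups. The 8 hepatocyte markers summed to 91.2 to 93.1 in RYGB and 93.1 to 94.2 in BWm, 7 of 8 had a negative log2 fold change, and their median was -0.15, close to that of the subunits, with none of the 8 called and 2 below at an unadjusted p under 0.05. The neutrophil markers summed to 12.9 to 18.9 in RYGB and 12.3 to 14.8 in BWm. RYGB replicates 4 to 6 (16.5, 18.9 and 16.6) lay above every BWm array. Replicates 1 to 3, those with animal numbers below 50, lay within the BWm range. The sums of the Kupffer cell, sinusoidal endothelium, stellate cell, cholangiocyte, and T and B cell markers overlapped between the groups. The part of these cell type markers in the result was not tested.

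**Figure D3:**
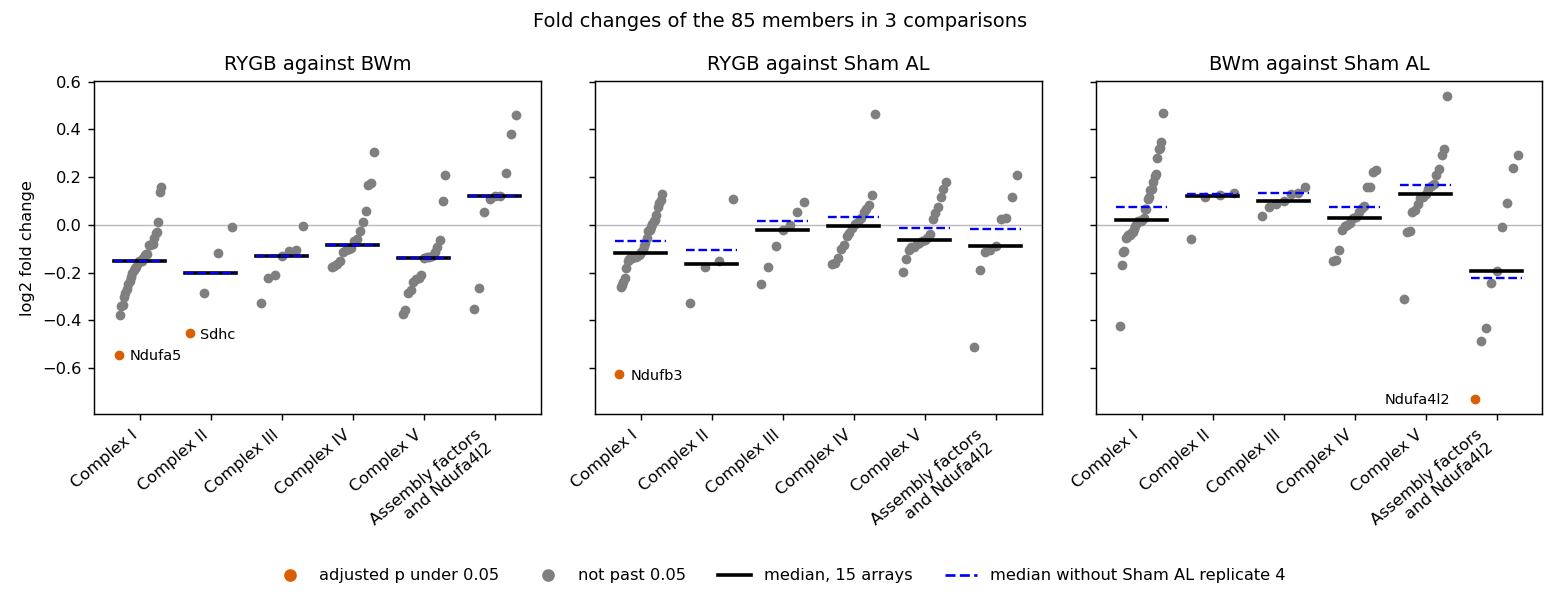
Log2 fold change of each of the 85 members (points) in RYGB against BWm, RYGB against Sham AL and BWm against Sham AL, by complex, with the median over all arrays (black) and without Sham AL replicate 4 (blue, dashed). The 4 calls at an adjusted p under 0.05 are orange and named; most other points lie between -0.4 and 0.4.

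RYGB against Sham AL compares bypass mice with sham mice that ate ad libitum, so bypass, body weight and feeding cannot be told apart. The members shifted less here than in RYGB against BWm, and the size of the shift depended on single arrays. Without Sham AL replicate 3 the median log2 fold change of the members was -0.11. Of the 85 members 55 had a negative log2 fold change, with a median of -0.07, and without Sham AL replicate 4 it was 49 with a median of -0.02, against 0.00 over all genes in both. The complex medians were -0.12, -0.16, -0.02, 0.00 and -0.06 for complexes I to V, and -0.07, -0.11, 0.02, 0.03 and -0.01 without that array. limma called 1 member, Ndufb3, of 85, both with and without it, while 1.38% of all genes were called with all arrays and 1.43% without. At an unadjusted p under 0.05, 4 members were lower and 1 higher, against 5.28% and 7.66% of all genes. The 4 are Ndufb3, Ndufb8, Sdhc and Ndufa4l2. The Kupffer cell markers, of the liver's macrophages, summed to 45.1 to 47.7 in RYGB and 42.1 to 46.0 in Sham AL, with 6 of 6 on the positive side and 1 called, and their part in the result was not tested.

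Ndufb3, a membrane-arm accessory subunit of complex I, had a lowest, median and highest signal of 5.55, 5.67 and 6.08 in RYGB, against 6.05, 6.30, 6.21, 6.17 and 7.03 in Sham AL (log2). Of the RYGB arrays 5 lay below every Sham AL array, replicate 4 lay just above the lowest, and Sham AL replicate 5 stood far above the rest. Ndufb3 fell 1.54-fold, by a log2 fold change of -0.63 ± 0.15 (SE, 95% interval -0.94 to -0.32, limma adjusted p = 0.0413), and by -0.67 without Sham AL replicate 4 (adjusted p = 0.0363). Without Sham AL replicate 5 the Ndufb3 difference was -0.46 and its adjusted p 0.0536. The call was lost in 12 of the 15 fits that left out 1 array, with adjusted p between 0.0326 and 0.0927, and over all alternatives it ranged from 0.0196 to 0.112. The BWm arrays, at 5.82, 5.93, 5.95 and 6.02, all lay below the Sham AL arrays too, at -0.42 ± 0.16 (adjusted p = 0.198).

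Cox6a2, the heart and muscle form of cytochrome oxidase subunit VIa, came close to a call in the opposite direction. It had a lowest, median and highest signal of 4.39, 4.50 and 4.62 in RYGB, against 4.07, 4.24, 4.29, 3.81 and 3.79 in Sham AL. The 2 groups did not overlap, RYGB being higher by 0.46 ± 0.11 (SE, adjusted p = 0.0528), and by 0.41 without Sham AL replicate 4 (adjusted p = 0.12). This was the 1 member whose RYGB and Sham AL arrays did not overlap, against 1.58% of all genes higher and 0.812% lower. Markers of skeletal and heart muscle summed to 27.3 to 30.5 in RYGB and 28.5 to 29.9 in Sham AL and overlapped. The other isoforms of other tissues, Cox4i2 (lung), Cox6b2, Cox7b2 and Cox8c (testis), gave 0.03, 0.01, 0.12 and -0.10, none of them called, on signals of 1.31 to 4.00 in the group means.

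The core subunits differed by small amounts here: Ndufs1 by -0.18 ± 0.11, Ndufv1 by -0.13 ± 0.12, Sdha by -0.18 ± 0.09, Uqcrc1 by 0.00 ± 0.10, Cox4i1 by -0.14 ± 0.14 and Atp5b by 0.15 ± 0.11 (SE), none of them called. Without Sham AL replicate 4 the same genes gave -0.12, -0.06, -0.13, 0.08, -0.08 and 0.23.

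**Figure D4:**
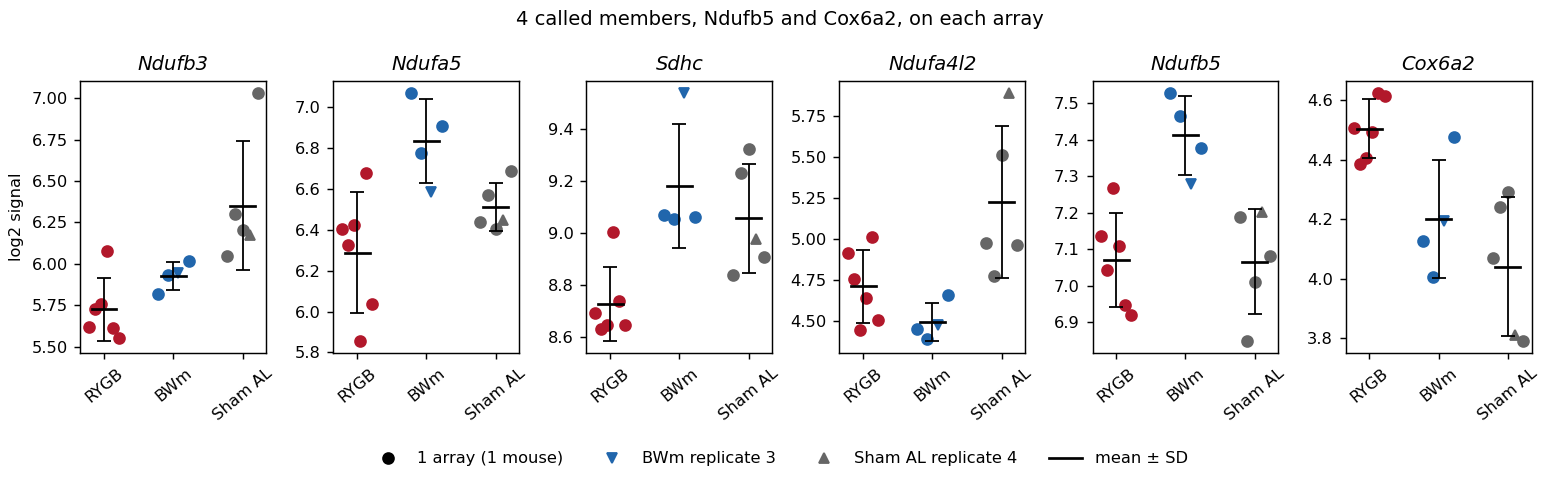
Log2 signal on each array (points, 1 mouse each) of the 4 called members Ndufb3, Ndufa5, Sdhc and Ndufa4l2, and of Ndufb5 and Cox6a2, with group mean ± SD. The Sdhc value of BWm replicate 3 (9.54), the Ndufb3 value of Sham AL replicate 5 (7.03) and the Ndufa4l2 value of Sham AL replicate 4 (5.89) are the highest of their genes.

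BWm against Sham AL compares sham mice held at the lower weight with sham mice that ate ad libitum. It tilted the members the other way. Lower weight and the feeding that kept it cannot be told apart in this comparison. Of the 85, 58 had a positive log2 fold change with a median of 0.07, and 66 with a median of 0.10 without Sham AL replicate 4, against a median of -0.01 over all genes in both. Without BWm replicate 3 it was 67 with a median of 0.14, and without BWm replicate 1 the median was 0.02. RYGB against BWm and BWm against Sham AL share the BWm arrays, so the tilts of the 2 comparisons are not independent. The complex medians were 0.02, 0.12, 0.10, 0.03 and 0.13 for complexes I to V, and 0.07, 0.13, 0.13, 0.07 and 0.17 without Sham AL replicate 4, but those of complexes I and IV were -0.02 and -0.01 after quantile normalization. All 7 members of complex III were on the positive side, between 0.04 (Uqcrc2) and 0.16 (Uqcrh), with none called by limma and none at an unadjusted p under 0.05. At that level 8 of the 85 members were higher and 4 lower, against 7.48% and 7.80% of all genes, which is near the background. The 8 include Atp5b at 0.29 ± 0.13, Atp5d (the delta subunit) at 0.54 ± 0.22, Ndufb11 at 0.47 ± 0.17 and Ndufb5 at 0.35 ± 0.11 (SE, adjusted p = 0.264, 0.239, 0.174 and 0.0942).

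The hepatocyte markers summed to 93.1 to 94.2 in BWm and 91.3 to 93.0 in Sham AL. Their median log2 fold change was 0.15, and 1 of 8 was called (Cps1 of the urea cycle, 0.44 ± 0.10, SE, limma adjusted p = 0.0229). Not all of them moved: Tat, Serpina1a, Cps1 and Hnf4a averaged higher in BWm, while Alb, Apoa1, Ttr and Apob differed little. Ttr and Apob averaged slightly lower in BWm. The part of these markers in the result was not tested.

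The 1 call of this comparison was Ndufa4l2, which is not a subunit of the liver enzyme but a relative of Ndufa4 that is induced under low oxygen. It had 4.45, 4.39, 4.48 and 4.66 in BWm, against 4.98, 4.77, 5.51, 5.89 and 4.96 in Sham AL (log2). All BWm arrays lay below all Sham AL arrays, and Sham AL replicates 3 and 4 were the highest. Ndufa4l2 fell 1.66-fold (log2 fold change -0.73 ± 0.19, SE, 95% interval -1.12 to -0.33, limma adjusted p = 0.043). Without Sham AL replicate 4 the difference was -0.56, with an adjusted p of 0.0695, so the members called were 1 of 85 with that array and 0 without it, against 2.84% and 2.25% of all genes. At an unadjusted p under 0.05 the fit without it had 6 members higher and 3 lower. Over its alternatives the Ndufa4l2 adjusted p ranged from 0.0286 to 0.132. Its RYGB values ran from 4.44 through a median of 4.70 to 5.01, at -0.51 ± 0.17 from Sham AL (adjusted p = 0.173).

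Groups that do not overlap were few among the members. In RYGB against BWm these were 2 members lower (Sdhc and Ndufb5) and 1 higher (Ndufaf7), against 2.91% and 4.71% of all genes. In BWm against Sham AL they were 3 higher (Ndufb5, Ndufb9 and Ndufaf6) and 2 lower (Ndufb3 and Ndufa4l2), against 3.46% and 3.39%. Ndufb5 was on the list in both because its BWm arrays lay above those of each other group.

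Promoter letters did not split the members by direction. In RYGB against BWm the median log2 fold change was -0.13 for the 17 members with the NRF1 letters and -0.14 for the 53 with an entry and without them. For GABP the medians were -0.09 in the 19 with and -0.15 in the 51 without. In RYGB against Sham AL the NRF1 medians were -0.04 with and -0.07 without, and in BWm against Sham AL 0.12 with and 0.06 without.

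Genes around the chain are described from lists of related function, to be read against the 6.36% of all genes called in RYGB against BWm and the 2.84% in BWm against Sham AL. Of 17 regulators of mitochondrial biogenesis, 2 fell in RYGB against BWm and none rose, and 3 rose in BWm against Sham AL and none fell, while in RYGB against Sham AL none was called by limma (5 at an unadjusted p under 0.05, 3 higher and 2 lower). Ppargc1a, which encodes the coactivator PGC-1-alpha, had a lowest, median and highest signal of 6.27, 6.90 and 7.24 in RYGB, against 7.75, 8.09, 7.38 and 7.001 in BWm and 6.48, 6.34, 6.55, 6.87 and 6.49 in Sham AL. The BWm arrays lay above every Sham AL array, and 3 of 4 above every RYGB array. Ppargc1a fell 1.68-fold in RYGB against BWm (-0.75 ± 0.20, SE, limma adjusted p = 0.0319) and rose 2.01-fold in BWm against Sham AL (1.01 ± 0.21, adjusted p = 0.013). Its relative Ppargc1b fell in RYGB against BWm (-0.48 ± 0.12, adjusted p = 0.0254), with 4.59, 4.95 and 5.02 as lowest, median and highest in RYGB, against 5.38, 5.50, 5.33 and 5.24 in BWm, with no overlap.

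Twnk, the helicase of mitochondrial DNA replication, rose in BWm against Sham AL (0.57 ± 0.13, SE, adjusted p = 0.024), and Nrip1, a corepressor of nuclear receptors known to restrain oxidative genes, rose too (0.60 ± 0.14, adjusted p = 0.024). For both, all BWm arrays lay above all Sham AL arrays: 6.48, 6.89, 6.40 and 6.26 against 6.04, 6.07, 5.87, 5.93 and 5.78 for Twnk, and 7.15, 7.58, 7.73 and 7.11 against 6.72, 6.87, 6.82, 6.97 and 6.59 for Nrip1. The transcription factors Esrra, Nrf1 and Gabpa and the mitochondrial DNA packaging factor Tfam were not called in any comparison. Their log2 fold changes in RYGB against BWm were 0.01 ± 0.09, -0.13 ± 0.10, 0.02 ± 0.10 and 0.19 ± 0.11.

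Of the electron carriers, cytochrome c (Cycs) and cytochrome c1 of complex III (Cyc1) were not called: 0.13 ± 0.13 and -0.29 ± 0.13 in RYGB against BWm. In coenzyme Q synthesis 1 of 9 genes was called, Coq8a, a kinase-like protein of the pathway, which fell 1.87-fold in RYGB against BWm (-0.90 ± 0.18, SE, adjusted p = 0.00427). It had a lowest, median and highest signal of 7.02, 7.34 and 8.15 in RYGB, against 8.22, 8.05, 8.46 and 8.58 in BWm, and 1 RYGB array overlapped. In the tricarboxylic acid cycle 1 of 12 genes was called, fumarase (Fh1), which rose 1.64-fold in BWm against Sham AL (0.71 ± 0.15, adjusted p = 0.0127), with 10.24, 10.43, 9.89 and 9.89 in BWm, against 9.38, 9.43, 9.13, 9.67 and 9.39 in Sham AL.

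**Figure D5:**
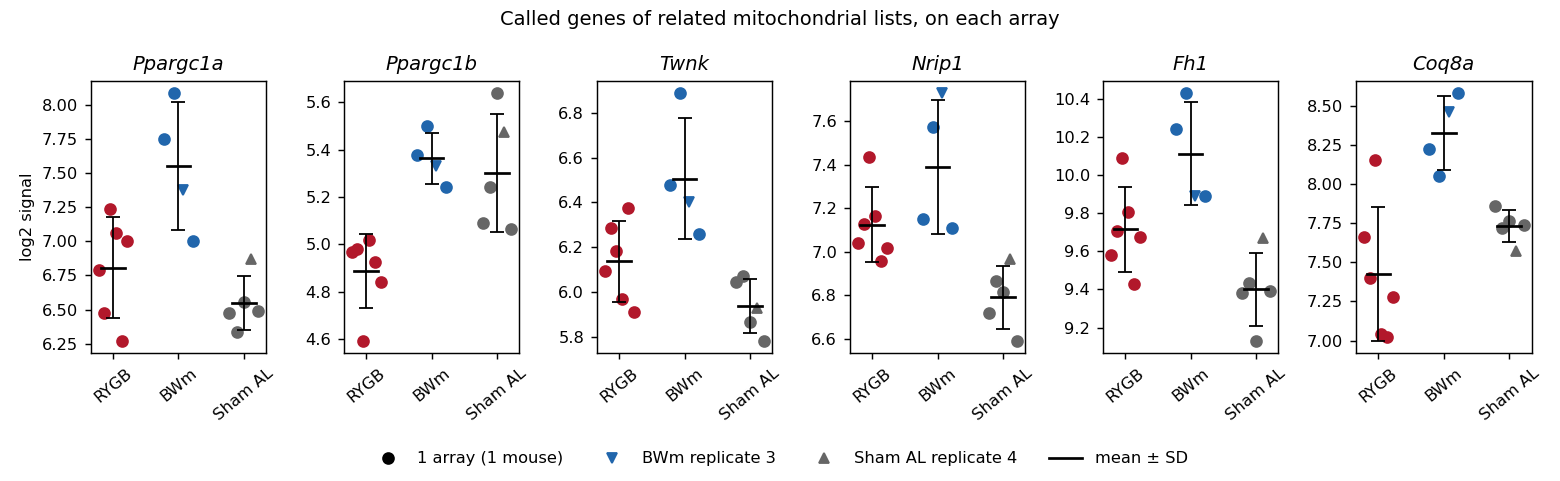
Log2 signal on each array (points, 1 mouse each) of 6 genes called in at least 1 comparison, with group mean ± SD. BWm has the highest mean for all 6 genes drawn, and RYGB has the lowest mean for Ppargc1b and Coq8a. Atpaf1 and Coa3, which were called lower in BWm than in RYGB, are not drawn.

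Of the assembly factors of the other complexes, 1 of 12 for complexes II, III and V and 1 of 18 for complex IV rose in RYGB against BWm and none fell, where 6.36% of all genes were called. By sign they were mixed, with 7 of 12 and 11 of 18 on the positive side. Atpaf1, a chaperone of the ATP synthase catalytic head, rose by 0.40 ± 0.11 (SE, adjusted p = 0.0397), with 5.92, 6.05 and 6.18 as lowest, median and highest in RYGB, against 5.85, 5.34, 5.81 and 5.60 in BWm. Coa3, which helps to translate and assemble the first subunit of complex IV, rose by 0.54 ± 0.15 (adjusted p = 0.0333), with 7.65, 7.90 and 8.15 in RYGB, against 7.75, 7.25, 6.97 and 7.49 in BWm. The Atpaf1 groups did not overlap, and those of Coa3 did. Cox19, an assembly factor of complex IV, gave -0.44 ± 0.12 in BWm against Sham AL (adjusted p = 0.0531), and it fell without Sham AL replicate 4 (-0.48, adjusted p = 0.0494). Of 7 complex I assembly factors without an Nduf name, 17 genes of membrane and import, and 5 of uncoupling and inhibition, none was called by limma in any comparison. At an unadjusted p under 0.05 in RYGB against BWm these lists held 1, 0 and 0 genes.

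The 10 subunit genes of mitochondrial DNA with a single symbol on the array had 6 on the positive and 4 on the negative side in RYGB against BWm. This list was added after the values were seen. Their median log2 fold change was 0.00 in RYGB against BWm, -0.05 in RYGB against Sham AL and -0.05 in BWm against Sham AL, and none was called by limma or had an unadjusted p under 0.05 in any of the 3. All 10 were on the negative side in RYGB against Sham AL.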

How the data were processed

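Per the series' design text and the submitters' processing notes, the authors used Expression Console 1.4.1.46 (robust multi-array average) on the arrays, and deposited log2 signals for 41345 transcript clusters. A genome build and annotation version were not given in the sources used here. The analysis began at those values: background on the arrays was not examined, and precision is limited by how many arrays each group has. Array medians lay between 3.89 and 4.02.

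The probe table names 1 symbol for 23521 clusters. For genes with several clusters the one with the highest mean was taken, which left 22180 genes. Of 108 clusters matching the name rule, 85 became members, 9 were second clusters of members, 10 carry several symbols, 2 are pseudogenes and 2 are the fat markers Cox7a1 and Cox8b. All 85 members were found by Entrez number in RefSeq. No filter on dim genes was applied, so some subunits have low mean signals, among them Ndufs5 (log2 2.90), Atp5j2 (3.41) and Ndufb11 (4.10). A brighter cluster shared by Ndufs5 and its pseudogene (mean 7.29) was left out because it carries several symbols.

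limma 3.58.1 (R 4.3.3) was fitted to 3 group means with lmFit and eBayes (two-sided, 12 residual degrees of freedom), and p-values were adjusted over all genes by Benjamini-Hochberg. The fit was tested on simulated data. The p-values set each difference against the spread between these mice, moderated by a prior over all genes (5.85 prior degrees of freedom). The genes named are the called members, the 3 smallest p per complex and comparison, core subunits, c subunit genes, isoforms of other tissues, 8 regulators and electron carriers, and called genes of the related lists. Members and lists were chosen with earlier results of these data known. Alternatives were other normalizations, filters, cluster rules, priors, weights and blocks, leaving out each array, and the methods' one-way analysis of variance. Promoters come from RefSeq (GRCm38.p6). Figures were drawn with matplotlib 3.10.9.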

Additional observations from a re-analysis of the deposited data

Results flagged for a closer look

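In 10 of 138 sets of arrays examined (the named members and the complex means, in each of 3 groups), 1 array lay farther from its group than Dixon's test allows at the 95% level. Chance alone marks about 1 in 20 such sets.

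In complex II, Sdhc stood at 9.54 on BWm replicate 3, against 9.05 to 9.07 on the other BWm arrays, and at 9.00 on RYGB replicate 4, against 8.63 to 8.74 on the other RYGB arrays. The mean of the complex II genes was 9.16 on RYGB replicate 6, against 9.09 to 9.11 on the others. In complex I, Ndufb3 stood at 7.03 on Sham AL replicate 5, against 6.05 to 6.30. In complex III, Uqcrc2 stood at 9.55 on BWm replicate 2, against 9.69 to 9.71.

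In complex V, RYGB replicate 5 was low for Atp5b (10.98, against 11.33 to 11.52) and for Atp5d (7.70, against 8.52 to 8.98), and RYGB replicate 6 was low for Atp5c1 (4.80, against 5.22 to 5.43). In complex IV, the testis form Cox8c stood at 2.81 on Sham AL replicate 2, against 2.36 to 2.48, and the mean of the complex IV genes was 7.16 on Sham AL replicate 4, against 7.01 to 7.05 on the other Sham AL arrays.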

How the results depend on the processing

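The median log2 fold change of the members kept its direction in all 3 comparisons under every alternative run, between -0.11 and -0.02 in RYGB against Sham AL, -0.19 and -0.10 in RYGB against BWm and 0.02 and 0.14 in BWm against Sham AL when 1 array was left out. The medians of complexes III and IV in RYGB against Sham AL and of complexes I and IV in BWm against Sham AL lay near 0 and changed sign (0.02, 0.03, -0.02 and -0.01 at the far end, the last after quantile normalization). Member calls were few and moved. In RYGB against Sham AL the 1 call became 2 after quantile normalization and 0 with the 2 groups alone, with the animal number block and in the methods' one-way analysis of variance after Benjamini-Hochberg adjustment, and it was 0 to 1 when 1 array was left out. In RYGB against BWm the 2 calls became 1 with the 2 groups alone, 4 with the animal number block, 0 in the methods' one-way analysis of variance at p 0.05 and fold 1.5, 0 after Benjamini-Hochberg adjustment, and 0 to 3 when 1 array was left out. In BWm against Sham AL the 1 call became 0 with the 2 groups alone, with array weights and in the adjusted analysis of variance, and 0 to 1 when 1 array was left out. Over all genes, calls in RYGB against Sham AL (306) were 471 with a filter at log2 5, 54 in the adjusted analysis of variance and 144 to 398 when 1 array was left out. In RYGB against BWm (1411) they were 857 in the methods' analysis of variance at p 0.05 and fold 1.5. They were 833 in the adjusted analysis of variance, and 930 to 1544 when 1 array was left out. In BWm against Sham AL (629) they were 1037 with the filter, 90 in the adjusted analysis of variance, and 284 to 646 when 1 array was left out. The filter and the smaller fits test fewer genes or arrays, and the cause of the other changes was not tested.

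The labels give the groups the same replicate numbers, but these did not pair the mice: same-numbered arrays correlated between -0.17 and 0.19 in their deviations from the group means, and 1 of 5, 1 of 4 and 1 of 4 correlated best with its own number. With the replicate number as a block, calls over all genes were 174 in RYGB against Sham AL, 903 in RYGB against BWm and 325 in BWm against Sham AL, and member calls 0, 1 and 0.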

Other observations

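Of the 85 members, 9 have a second transcript cluster with the same single symbol, which the tests did not use. The genes below were chosen after their values were seen. In BWm against Sham AL both clusters of Atp5d, the delta subunit of the ATP synthase, lay on the positive side (0.54 ± 0.22 and 0.38 ± 0.17, SE), as did both of Atp5g2, a c subunit gene (0.21 ± 0.10 and 0.19 ± 0.09). The 2 clusters of Ndufa8, a complex I subunit of the intermembrane space side, both lay on the positive side in RYGB against BWm (0.14 ± 0.09 and 0.20 ± 0.11). Atp5h, subunit d of the stalk, differed in size between its clusters in RYGB against BWm: -0.13 ± 0.13 on the brighter cluster and -0.59 ± 0.21 on the dimmer one, whose mean signal was 4.89. The clusters of Cox5b and Cox7b lay on opposite sides in RYGB against BWm. Cox5b gave -0.16 ± 0.14 on the brighter and 0.11 ± 0.16 on the dimmer cluster, and Cox7b -0.18 ± 0.13 and 0.13 ± 0.17. Their dimmer clusters had mean signals of 3.94 and 3.83.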
